A study of Homo sapiens with 33 samples.

Results

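Definitive endoderm regulators are genes whose products set up the layer that gives rise to gut, liver and pancreas. Here 8 of them were followed, chosen by name: SOX17, GATA4, GATA6, FOXA1, FOXA2, HNF4A, HHEX and CER1, which are 8 of 35805 genes in the RNA-seq table and 30 of 153958 windows around start sites in the ChIP-seq table. The study disrupted EZH2, the histone methyltransferase of Polycomb repressive complex 2, in H9 human embryonic stem cells (ESCs) and measured RNA and histone marks. RNA-seq had 3 libraries for each of 4 genotypes, and ChIP-seq measured 4 histone marks (H3K27me3, H3K4me3, H3K27ac and H3K4me1) beside input in each genotype, and the EZH2 protein in EZH2+/+ ESCs alone.

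EZH2+/+ ESCs were the parental H9 line. EZH2-/+ ESCs carried a frameshift made by CRISPR/Cas9 in an early exon on 1 allele. EZH2-/- ESCs were targeted on the other allele in an EZH2-/+ line that held a doxycycline (DOX)-inducible piggyBac EZH2 transgene, and were then kept without DOX. EZH2-/- +EZH2 ESCs had that transgene switched on with DOX. All were grown on irradiated mouse embryonic fibroblasts and flow-sorted for SSEA4, a surface marker of undifferentiated ESCs. The edited lines came from single colonies, so a difference between genotypes and a difference between clones cannot be told apart. The exception is EZH2-/- against EZH2-/- +EZH2 ESCs, which differ in DOX and in expression of the transgene. The sources do not say whether libraries of 1 genotype came from separate cultures, so the tests measure the spread between these libraries.

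Definitive endoderm forms from epiblast cells that receive sustained Nodal signalling. EOMES and MIXL1 act early in these cells, SOX17, GATA4, GATA6 and the FOXA factors then open and activate endoderm genes, and CER1 is secreted by the anterior endoderm and blocks Nodal, BMP and WNT ligands. In ESCs many genes of this kind lie under H3K27me3, the mark that EZH2 deposits and that accompanies silencing, together with H3K4me3, which marks start sites.

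The RefSeq promoters (GRCh38.p14, 250 bases before to 50 after the start) matched 5 of the 8 genes. The following 4 are shown because they span the range of EZH2 and H3K27me3 given with the ChIP-seq values, and capitals mark each CpG dinucleotide. GATA6 and HHEX stand for genes with abundant EZH2 and H3K27me3 in EZH2+/+ ESCs, CER1 for a marked gene with little EZH2, and HNF4A for the gene with neither.

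GATA6, chr18:22169339-22169638 (+ strand): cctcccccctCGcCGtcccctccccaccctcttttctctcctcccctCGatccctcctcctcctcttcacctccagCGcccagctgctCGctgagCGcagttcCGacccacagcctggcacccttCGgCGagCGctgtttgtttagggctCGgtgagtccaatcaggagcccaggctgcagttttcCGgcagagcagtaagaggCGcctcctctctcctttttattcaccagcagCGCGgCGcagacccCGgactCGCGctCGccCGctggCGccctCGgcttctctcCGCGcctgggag
HHEX, chr10:92689705-92690004 (+ strand): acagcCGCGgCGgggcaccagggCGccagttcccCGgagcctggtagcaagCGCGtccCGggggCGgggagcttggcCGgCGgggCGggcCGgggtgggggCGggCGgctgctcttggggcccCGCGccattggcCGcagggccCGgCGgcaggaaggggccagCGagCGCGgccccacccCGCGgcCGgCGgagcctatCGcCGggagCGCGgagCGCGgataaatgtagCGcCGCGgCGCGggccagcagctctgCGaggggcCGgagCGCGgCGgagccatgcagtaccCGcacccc
CER1, chr9:14722684-14722983 (- strand): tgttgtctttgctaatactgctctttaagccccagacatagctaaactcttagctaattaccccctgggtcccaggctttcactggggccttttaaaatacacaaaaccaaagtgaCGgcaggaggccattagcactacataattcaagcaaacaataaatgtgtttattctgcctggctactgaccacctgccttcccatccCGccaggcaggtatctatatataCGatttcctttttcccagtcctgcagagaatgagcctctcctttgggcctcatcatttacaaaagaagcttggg
HNF4A, chr20:44355449-44355748 (+ strand): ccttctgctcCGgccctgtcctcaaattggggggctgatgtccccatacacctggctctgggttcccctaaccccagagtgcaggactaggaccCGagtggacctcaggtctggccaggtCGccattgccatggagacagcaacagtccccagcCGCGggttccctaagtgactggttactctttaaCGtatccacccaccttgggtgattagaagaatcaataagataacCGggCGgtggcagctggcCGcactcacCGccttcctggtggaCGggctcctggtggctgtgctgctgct

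The HHEX promoter held 44 CpG and the GATA6 promoter 25, and that of FOXA1 held 34, where the median over 35116 RefSeq promoters was 14. The CER1 promoter held 3, a number that 24.5% of promoters did not exceed. HNF4A has 2 promoters in the table, of which the one printed held 11 CpG and the other 9. Searched on both strands, the letters AGATAA, bound by GATA factors, were found in 1 of these 6 promoters, the HNF4A promoter printed above, and in 10.3% of all promoters. The letters TGTTTAC, bound by forkhead factors and found in 3.42% of promoters, and TATAAA, found in 11.5%, occurred in none of the 6. These letters are descriptions of the window, not binding sites. No sequence is printed for SOX17, GATA4 or FOXA2.

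RNA libraries held 16587860 to 36589089 reads on genes, so that 3 reads, the floor used here, came to 0.0528 to 0.120 RPM (reads-per-million, scaled to each library). The targeted gene, EZH2, stood at 63.8 ± 4.56 RPM (SD, n = 3) in the parental libraries, 51.2 ± 4.95 with 1 allele disrupted, 9.95 ± 1.44 with both disrupted and 304 ± 70.7 RPM once restored, the order that the labels give. The 8 ESC markers checked, among them POU5F1 and NANOG, summed to 2369 to 2971 RPM in EZH2+/+ and 3292 to 3731 RPM in EZH2-/- libraries. The sums were also higher in EZH2-/+ (3172 to 3715 RPM) and EZH2-/- +EZH2 libraries (3269 to 3793 RPM). Relative to EZH2+/+ ESCs, 4 of the 8 rose in EZH2-/- +EZH2 ESCs, where 3.4% of all genes did. Between EZH2-/- and EZH2-/- +EZH2 ESCs none was called without a block. POU5F1, NANOG, DPPA4 and ZFP42 rose in EZH2-/- relative to EZH2+/+ ESCs and SOX2 fell. With library numbers as a block, DNMT3B also rose (adjusted p = 0.0275) and SALL4 fell (0.0167), and SOX2 fell relative to EZH2-/- +EZH2 ESCs too (0.0251, where 3.21% of all genes were called lower). Library 2 of EZH2-/+ ESCs stood apart from its replicates for the endoderm genes, as described after the EZH2-/- comparisons, and each count of the 8 genes called is also given without it. All 8 genes passed the filter on low values. In bulk RNA, fewer cells of a type and less RNA per cell cannot be told apart.

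Loss of EZH2 was compared first with the parental cells. Relative to EZH2+/+ ESCs, 6 of the 8 genes rose in EZH2-/- ESCs: SOX17, GATA4, GATA6, HNF4A, HHEX and CER1. Their mean levels were 3.10-fold (HHEX) to 14.6-fold (CER1) higher. FOXA1 and FOXA2 did not pass the test. Over all 20608 genes tested, 12.6% were called higher in this comparison (limma, Benjamini-Hochberg adjusted p under 0.05), and the median difference of log2(RPM + 0.1) was 2.36 over the 8 genes and -0.13 over all genes tested.

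GATA6 encodes a zinc-finger factor that acts at the onset of endoderm formation. It was read at 3.42, 2.74 and 1.42 RPM in libraries 1 to 3 of EZH2+/+ ESCs, 4.68, 18.7 and 0.818 RPM in EZH2-/+, 21.0, 45.6 and 20.9 RPM in EZH2-/-, and 6.35, 2.30 and 3.64 RPM in EZH2-/- +EZH2 ESCs. All 3 EZH2-/- libraries lay above every other library. The log2 difference from EZH2+/+ ESCs was 3.46 (standard error 0.81, adjusted p = 0.00705 by limma). GATA6 lies on chromosome 18 from 22169443 to 22202528 of GRCh38 on the plus strand. The antisense gene RP11-627G18.1 overlaps it, and since reads were counted without strand the reads of both cannot be told apart.

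GATA4, a related zinc-finger factor (chromosome 8, 11676959 to 11760002), was at 3.42, 2.84 and 1.70 RPM in EZH2+/+, 3.67, 12.8 and 0.569 RPM in EZH2-/+, 11.8, 38.4 and 17.9 RPM in EZH2-/- and 5.50, 2.73 and 3.16 RPM in EZH2-/- +EZH2 ESCs. Here EZH2-/+ library 2 lay above the lowest EZH2-/- library, and the EZH2-/- libraries did not overlap those of EZH2+/+ or EZH2-/- +EZH2 ESCs. The log2 difference between EZH2-/- and EZH2+/+ ESCs was 2.93 (standard error 0.80, adjusted p = 0.0154).

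SOX17, an HMG-box factor required for definitive endoderm (chromosome 8, 54457935 to 54460888), was at 7.19, 4.72 and 3.45 RPM in EZH2+/+, 5.71, 19.2 and 2.54 RPM in EZH2-/+, 16.6, 29.2 and 15.8 RPM in EZH2-/- and 4.47, 2.52 and 3.04 RPM in EZH2-/- +EZH2 ESCs. It showed the same pattern, with EZH2-/+ library 2 among the EZH2-/- values. The log2 difference from EZH2+/+ ESCs was 1.99 (standard error 0.56, adjusted p = 0.0175).

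FOXA2 and FOXA1 encode forkhead factors that bind and open closed chromatin at endoderm enhancers. FOXA2 (chromosome 20, 22581005 to 22585455) was at 11.3, 6.52 and 6.23 RPM in EZH2+/+, 13.2, 20.5 and 3.08 RPM in EZH2-/+, 23.3, 19.3 and 12.8 RPM in EZH2-/- and 14.1, 5.36 and 4.08 RPM in EZH2-/- +EZH2 ESCs. The EZH2-/- libraries lay above those of EZH2+/+ ESCs but overlapped those of EZH2-/- +EZH2 ESCs through library 1. The log2 difference from EZH2+/+ ESCs came to 1.20 with a standard error of 0.60 (adjusted p = 0.147). It passed the test with library numbers as a block (adjusted p = 0.0295) and where these 6 libraries were fitted alone (adjusted p = 0.011).

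FOXA1 (chromosome 14, 37589984 to 37596059) was at 0.821, 1.07 and 0.590 RPM in EZH2+/+, 0.661, 0.929 and 0.427 RPM in EZH2-/+, 1.07, 1.13 and 0.801 RPM in EZH2-/- and 0.206, 0.375 and 0.520 RPM in EZH2-/- +EZH2 ESCs. It differs from the other 7 genes in that EZH2-/- and EZH2+/+ libraries overlapped. These values rest on 8 to 61 reads per library. The log2 difference from EZH2+/+ ESCs was 0.27 (standard error 0.35, adjusted p = 0.586).

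HNF4A encodes a nuclear receptor of liver and visceral endoderm (chromosome 20, 44355700 to 44432845). It was at 1.04, 1.27 and 0.765 RPM in EZH2+/+, 1.69, 7.26 and 0.391 RPM in EZH2-/+, 5.54, 11.96 and 5.85 RPM in EZH2-/- and 0.643, 1.31 and 0.999 RPM in EZH2-/- +EZH2 ESCs. The EZH2-/- libraries were apart from those of EZH2+/+ and EZH2-/- +EZH2 ESCs, with a log2 difference from EZH2+/+ ESCs of 2.74 (standard error 0.72, adjusted p = 0.0122). The antisense genes that overlap HNF4A had 0 RPM in the mean of each genotype.

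HHEX, a homeobox repressor of anterior endoderm and the early liver bud (chromosome 10, 92689951 to 92695646), was at 1.40, 0.964 and 1.20 RPM in EZH2+/+, 1.13, 4.30 and 1.81 RPM in EZH2-/+, 3.13, 4.71 and 3.21 RPM in EZH2-/- and 1.26, 1.18 and 2.20 RPM in EZH2-/- +EZH2 ESCs. Its EZH2-/- libraries did not overlap those of either control. The log2 difference from EZH2+/+ ESCs was 1.54 (standard error 0.41, adjusted p = 0.0132).

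CER1, the secreted antagonist (chromosome 9, 14719724 to 14722717), had the widest range. It was at 16.4, 15.3 and 3.06 RPM in EZH2+/+, 36.6, 358 and 2.51 RPM in EZH2-/+, 116, 308 and 84.8 RPM in EZH2-/- and 22.9, 16.9 and 5.76 RPM in EZH2-/- +EZH2 ESCs. Its highest library of all was EZH2-/+ library 2 and its lowest was EZH2-/+ library 3. The log2 difference between EZH2-/- and EZH2+/+ ESCs was 3.96 (standard error 1.32, adjusted p = 0.0377).

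All 3 EZH2-/- libraries exceeded all 3 EZH2+/+ libraries for 7 of the 8 genes, where 20.6% of all genes tested did so. In the fit blocked by library number, 7 of the 8 genes rose (17.3% of all genes). The call for GATA6 held with every library of the comparison left out in turn, and that for CER1 was lost with each of them (adjusted p 0.0546 to 0.131), though not without EZH2-/+ library 2 (adjusted p = 0.00793). The count of genes called fell from 6 to 1 without EZH2-/- library 2, the library with the highest value for 6 of the 8 genes, and to 3 without EZH2+/+ library 2 or library 3. Without EZH2-/+ library 2, which enters only through the shared spread, 6 genes were called.

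Restoration of EZH2 asks which of these differences follow the transgene within 1 genetic background, and uses the same EZH2-/- libraries. Relative to EZH2-/- +EZH2 ESCs, EZH2-/- ESCs had higher means of all 8 genes, by 2.35-fold (FOXA2) to 11.2-fold (CER1), but in the fit without a block only SOX17 rose, with a log2 difference of 2.56 (standard error 0.56, adjusted p = 0.0274 by limma). Of all genes tested, 2.63% were called higher. The median log2 difference was 2.5 over the 8 genes and 0.02 over all genes tested.

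In the fit blocked by library number, 6 of the 8 genes rose, against 6.19% of all genes: SOX17 (adjusted p = 0.00864), HNF4A (0.01), CER1 (0.027), GATA6 (0.0276), FOXA1 (0.0308) and GATA4 (0.0433). Without a block, the adjusted p was 0.0527 for HNF4A, 0.0701 for FOXA1, 0.0869 for GATA6, 0.132 for GATA4, 0.137 for HHEX, 0.197 for CER1 and 0.264 for FOXA2. Without EZH2-/+ library 2, 4 genes were called: SOX17, GATA4, GATA6 and HNF4A. Using only the 6 libraries compared, 5 were called, with CER1 as the fifth. Conversely, the call for SOX17 was lost without EZH2-/- library 2 (adjusted p = 0.155) or library 3 (0.0727), and without EZH2-/- +EZH2 library 1 (0.053), 2 (0.115) or 3 (0.0878).

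The separation of the libraries did not depend on the fit. All 3 EZH2-/- libraries exceeded all 3 EZH2-/- +EZH2 libraries for 7 of the 8 genes, all but FOXA2, where 13.5% of all genes tested did so. The log2 differences were 3.46 for CER1, 2.82 for both GATA6 and HNF4A, 2.44 for GATA4, 1.39 for FOXA2, 1.28 for FOXA1 and 1.23 for HHEX, with standard errors from 0.35 (FOXA1) to 1.32 (CER1).

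FOXA1 is the gene for which the 2 controls differ most. Its EZH2-/- +EZH2 libraries all lay below its EZH2+/+ libraries (0.367 ± 0.157 against 0.825 ± 0.238 RPM, SD, n = 3), with a log2 difference of -1.01 (standard error 0.35, adjusted p = 0.087), which passed with the library number as a block (adjusted p = 0.0418, where 16.1% of all genes were called lower). Its EZH2-/- libraries thus lay above the restored but not the parental ones. For the other 7 genes, restored and parental libraries overlapped, and the log2 differences ran from -0.58 (SOX17) to 0.64 (GATA6). None of the 8 genes was called in this comparison without a block, where 3.4% of all genes were called higher and 6.9% lower, and FOXA1 was the 1 gene with an unadjusted p under 0.05. limma voom on the recovered reads also called 0, as did the fit without EZH2-/+ library 2.

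**Figure D1:**
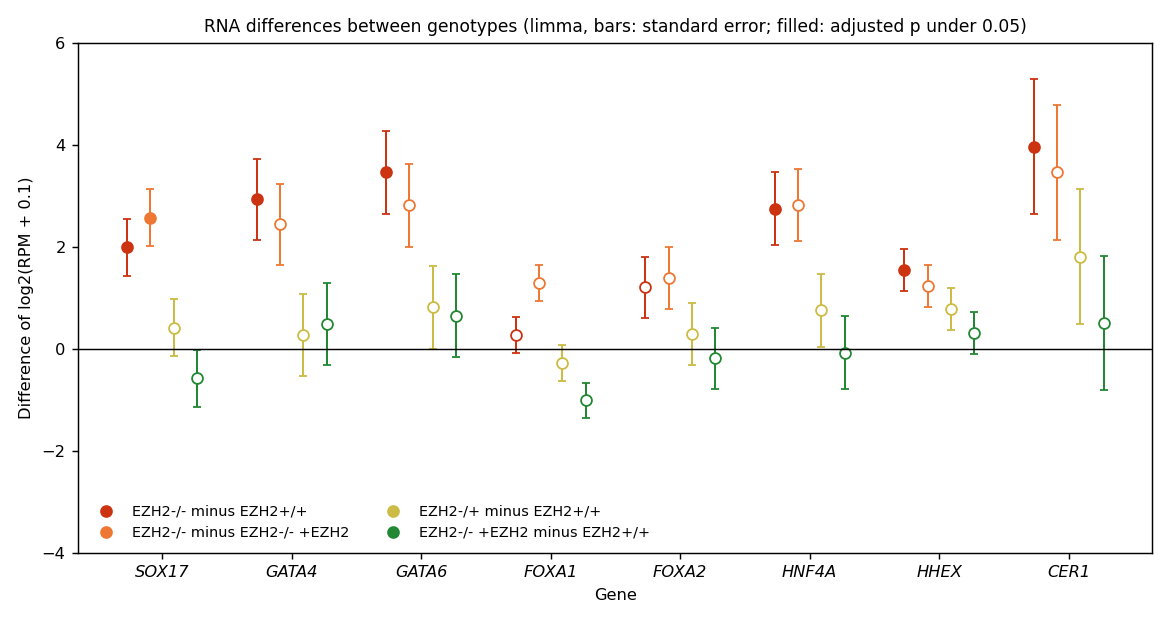
Differences of log2(RPM + 0.1) between genotypes for the 8 genes, with standard errors from limma (n = 3 libraries per genotype). Filled points have an adjusted p under 0.05. Relative to EZH2+/+ ESCs, 6 genes were called in EZH2-/- ESCs, and relative to EZH2-/- +EZH2 ESCs only SOX17 was.

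Per length of exon, the order of the genes differed between genotypes. In EZH2+/+ ESCs CER1 came first at 9.41 ± 6.01 RPKM, the RPM divided by kilobases of exon (SD, n = 3), then FOXA2 at 2.95 ± 1.05 and SOX17 at 2.18 ± 0.811, then GATA6, GATA4 and HHEX between 0.471 and 0.665, FOXA1 at 0.187 ± 0.0538 and HNF4A at 0.101 ± 0.0248. Means less or plus 1 SD overlapped between neighbours except SOX17 and GATA6, HHEX and FOXA1, and FOXA1 and HNF4A. In EZH2-/- ESCs CER1 reached 138 ± 98.4 RPKM, apart from SOX17 at 8.75 ± 3.21, GATA6 at 7.68 ± 3.74, FOXA2 at 6.79 ± 1.96 and GATA4 at 5.11 ± 3.14, which overlapped in turn. HHEX followed at 1.46 ± 0.354 and HNF4A at 0.765 ± 0.356, and FOXA1 came last at 0.227 ± 0.0395. The exon length of HNF4A is the sum over all its annotated isoforms (10167 bases), which lowers its value per length.

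EZH2-/+ ESCs carry 1 intact allele. None of the 8 genes was called relative to EZH2+/+ ESCs (limma, with or without the block, and limma voom on the recovered reads), and 0 had an unadjusted p under 0.05, where 0.18% of all genes were called higher and 0.966% lower. The 3 libraries were far apart. Their log2 levels had a median SD of 1.70 over the 8 genes, against 0.49 in EZH2+/+ ESCs, 0.55 in EZH2-/- ESCs and 0.52 in restored ESCs, while over all genes tested the median SD was 0.32 in EZH2-/+ and 0.23 in EZH2+/+ ESCs.

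Library 2 of EZH2-/+ ESCs held the high end. It exceeded the mean of libraries 1 and 3 by 4.66-fold for SOX17, 6.04-fold for GATA4, 6.79-fold for GATA6, 6.98-fold for HNF4A, 2.92-fold for HHEX, 2.52-fold for FOXA2 and 18.3-fold for CER1, and by 1.71-fold for FOXA1. For 7 of the 8 genes, all but FOXA1, this was over 1 on the log2 scale, where 2.38% of genes tested were. Ranked by that difference among 20608 genes, CER1 was second, GATA6 19th, HNF4A 21st, GATA4 27th and SOX17 50th. The library reached the lowest EZH2-/- value or more for 7 of the 8 genes, all but GATA6. FOXA1 is among them although its EZH2-/- and EZH2+/+ libraries overlapped. The library also did so for 6 of 8 extraembryonic endoderm markers and for 5 of 8 ESC, 5 of 8 neuroectoderm and 5 of 8 fibroblast markers. For cardiac mesoderm it was 1 of 8 markers. The share over all genes is not given. Library 3 was at the other end, with the lowest of the 12 values for GATA4, GATA6, FOXA2, HNF4A and CER1. Without library 2, the difference between EZH2-/+ and EZH2+/+ ESCs turned to -0.35 for SOX17, -0.74 for GATA4, -0.24 for GATA6, -0.27 for FOXA2 and -0.24 for HNF4A on the log2 scale, none of them called.

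In the same library, LEFTY1 and LEFTY2, feedback inhibitors of Nodal, stood at 466 and 471 RPM, against means of 36.9 and 35.0 RPM in libraries 1 and 3. GSC, a homeobox gene of the anterior primitive streak, was at 8.23 RPM against 1.20. CXCR4, a chemokine receptor used to sort definitive endoderm, was at 23.6 against 4.90, and KIT, sorted with it, at 21.2 against 15.0. The difference was over 1 (log2) for 5 of 12 Nodal and mesendoderm genes. It was over 1 for 3 of 10 endoderm surface and secreted products and below -1 for 2. Over all genes tested, 2.38% were above 1 and 3.54% below -1. The mesoderm gene HAND1 was at 0.0216 RPM, or 1 read as in libraries 1 and 3. TWIST1, of the fibroblast list, was at 0.281 RPM against 0.166, where the EZH2-/- libraries held 5.61 to 8.34 RPM. The median difference of library 2 from libraries 1 and 3 was 2.37 (log2) over the 8 genes, 1.32 over 6 Nodal and WNT antagonists, 0.41 over 12 Nodal and mesendoderm genes, 0.00 over 8 cardiac mesoderm markers, 0.05 over 8 ESC markers and 0.03 over all genes. The median was 0.49 over the 10 surface and secreted products and 0.30 over 8 fibroblast markers. What set this library apart was not tested.

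**Figure D2:**
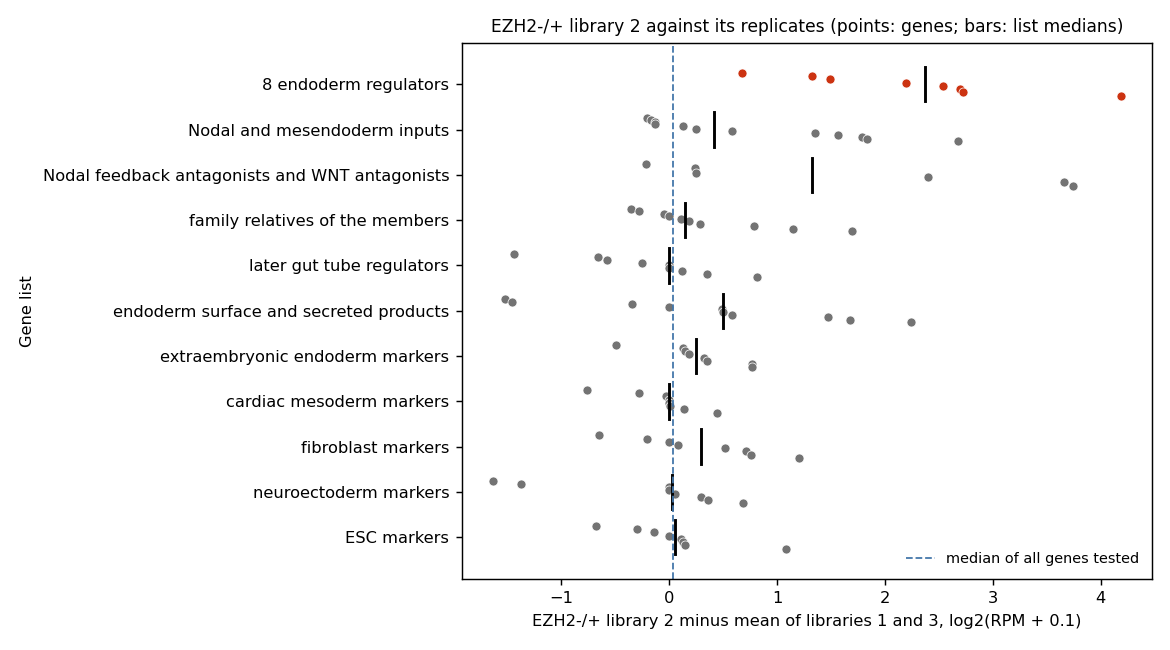
Difference of EZH2-/+ library 2 from the mean of EZH2-/+ libraries 1 and 3, as log2(RPM + 0.1), for each gene (points) of 11 lists, with list medians (bars). The 8 endoderm regulators have a median of 2.37 and lie between 0.68 and 4.19, and the dashed line is the median of all genes tested, 0.03.

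The surrounding pathway was counted over lists chosen by function. Of 12 genes that send or receive Nodal signals or mark mesendoderm, 6 rose in EZH2-/- relative to EZH2+/+ ESCs: NODAL, its co-receptor TDGF1, GDF3, the SMAD partner FOXH1, T (brachyury) and LHX1. With library numbers as a block 9 rose, EOMES, MIXL1 and GSC included, and SMAD2 fell (adjusted p = 0.0175, where 28% of all genes were called lower). NODAL itself was at 8.20 ± 3.59 RPM (SD, n = 3) in EZH2+/+, 25.5 ± 23.1 in EZH2-/+, 196 ± 46.4 in EZH2-/- and 65.6 ± 33.1 RPM in restored ESCs. Relative to EZH2-/- +EZH2 ESCs, LHX1 alone of the 12 rose (log2 difference 4.29, adjusted p = 0.0266), and 3 did with the block, GDF3 and T being the others. The median log2 difference of the 12 was 2.17 from EZH2+/+ and 1.15 from restored ESCs.

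In restored cells some of these inputs stood above the parental level. NODAL (log2 difference 2.96, adjusted p = 0.033), TDGF1 (1.82, adjusted p = 0.000429), GDF3 (1.93, adjusted p = 0.00385) and LEFTY2 (3.63, adjusted p = 0.0221) were higher in EZH2-/- +EZH2 than in EZH2+/+ ESCs. LEFTY2 stood at 128, 478 and 96.5 RPM in the restored libraries, against 8.37, 25.9 and 14.0 RPM in the parental ones. Whether these changes differ from those of the 8 genes was not tested.

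Of 6 antagonists of Nodal or WNT, LEFTY1 and LEFTY2 rose in EZH2-/- relative to EZH2+/+ ESCs (log2 differences 4.77 and 5.29), and DKK1 rose relative to EZH2-/- +EZH2 ESCs with the block alone (adjusted p = 0.0315). Their medians were 1.12 and 1.39 in these comparisons. Of 10 relatives of the 8 genes, 8 were tested. SOX18, GATA2 and GATA3 rose in EZH2-/- ESCs against both controls, and GATA5 rose against EZH2-/- +EZH2 ESCs. FOXA3, the third FOXA gene, had a mean of 12.5 RPM in EZH2-/- ESCs, against 9.16 RPM in the parental ones, and passed with the block only (adjusted p = 0.0393), as did SOX7 (adjusted p = 0.0367). The medians of the relatives tested were 0.75 relative to EZH2+/+ and 1.65 relative to restored ESCs.

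Genes that act after endoderm is formed changed in both directions relative to EZH2+/+ ESCs. Of 9 later gut tube regulators, 7 were tested, and TBX3 and ISL1 rose against both controls, while SOX9 fell relative to EZH2+/+ ESCs, where 18.8% of all genes were called lower, and rose with the block relative to EZH2-/- +EZH2 ESCs (adjusted p = 0.0354). PDX1 was without a read in 11 of 12 libraries and NKX2-1 in 10. The medians were 0.40 and 0.80. Of 10 surface and secreted products, 8 were tested. APOA1, APOA2 and APOB, which encode apolipoproteins, rose relative to EZH2+/+ ESCs and KIT and SERPINA1 fell, and relative to EZH2-/- +EZH2 ESCs CXCR4 and APOA2 rose. FGB, a fibrinogen gene, passed relative to EZH2+/+ ESCs with the block only (adjusted p = 0.0302). With the block, KIT (log2 difference -0.88), SERPINA1 (-2.61) and CXCR4 (-1.74) were lower in EZH2-/- +EZH2 than in EZH2+/+ ESCs. In that fit 16.1% of all genes were called lower. ALB, the gene of serum albumin, had no read in 6 libraries and reached 0.302 RPM at most. The medians of this list were 1.37 and 1.73.

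Several of the 8 genes are also used by other cell types, GATA4 and GATA6 by cardiac mesoderm and SOX17, GATA4 and GATA6 by extraembryonic endoderm. Of 8 cardiac mesoderm markers, 4 rose in EZH2-/- ESCs against both controls: HAND1, HAND2, TBX5 and TBX20. With the block 5 rose in each comparison, with TNNT2 added relative to EZH2+/+ ESCs (adjusted p = 0.0476) and MESP1 relative to EZH2-/- +EZH2 ESCs (adjusted p = 0.0393). Their list summed to 6.03 to 7.02 RPM in EZH2+/+, 5.27 to 5.90 in EZH2-/+, 9.22 to 58.6 in EZH2-/- and 3.16 to 6.79 RPM in EZH2-/- +EZH2 libraries, and TBX5 had no read in 9 libraries, every library outside EZH2-/-. HAND1 was at 2.69, 35.9 and 31.3 RPM in the EZH2-/- libraries, and GATA4 was likewise lowest in the first, at 11.8 RPM against 38.4 and 17.9 RPM. HNF4A, at 5.54, 11.96 and 5.85 RPM, and HHEX, at 3.13, 4.71 and 3.21 RPM, were also lowest in library 1. Their values in libraries 1 and 3 were close. The same was so for GATA6, at 21.0, 45.6 and 20.9 RPM, and SOX17, at 16.6, 29.2 and 15.8 RPM. The list had medians of 2.33 relative to EZH2+/+ and 2.56 relative to restored ESCs.

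Of 8 extraembryonic endoderm markers, PDGFRA rose and LAMA1 fell relative to EZH2+/+ ESCs, and COL4A1 rose relative to EZH2-/- +EZH2 ESCs. With the block 3 rose relative to EZH2+/+ ESCs, COL4A1 (adjusted p = 0.0492) and SPARC (0.0176) being added, and 4 rose relative to EZH2-/- +EZH2 ESCs, where PDGFRA (0.0401), COL4A2 (0.0158) and DAB2 (0.0247) joined COL4A1. The list summed to 641 to 753 RPM in EZH2+/+, 570 to 747 in EZH2-/+, 629 to 1147 in EZH2-/- and 519 to 557 RPM in EZH2-/- +EZH2 libraries. Of 8 fibroblast markers, COL3A1, LUM and TWIST1 rose against both controls, THY1 rose and COL1A2 fell relative to EZH2+/+ ESCs, and DCN had no read in 9 libraries. COL1A1 fell relative to EZH2+/+ ESCs with the block only (adjusted p = 0.035). That list summed to 286 to 361 RPM in EZH2+/+ and 293 to 538 RPM in EZH2-/- libraries, and to 247 to 305 RPM in EZH2-/+ and 232 to 309 RPM in EZH2-/- +EZH2 libraries. The medians relative to EZH2+/+ and restored ESCs were 0.42 and 0.76 for extraembryonic endoderm and 1.54 and 0.60 for fibroblast markers. With the block, PDGFRA (log2 difference 1.67) and THY1 (1.20) were also higher in EZH2-/- +EZH2 than in EZH2+/+ ESCs. LAMA1 (-1.07), COL4A1 (-0.66), COL4A2 (-0.64), COL1A1 (-1.21) and COL1A2 (-1.09) were lower there, as were 16.1% of all genes. Of 8 neuroectoderm markers 6 were tested, of which NES rose and PAX6 and SOX1 fell in EZH2-/- relative to EZH2+/+ ESCs. Relative to EZH2-/- +EZH2 ESCs ZIC1 rose (log2 difference 2.42, adjusted p = 0.0392), and with the block NES did too (adjusted p = 0.0314). PAX6 and SOX1 were not called between EZH2-/- and EZH2-/- +EZH2 ESCs. With the block, PAX6 (log2 difference -3.61), SOX1 (-4.72) and ZIC1 (-2.52) were lower in EZH2-/- +EZH2 than in EZH2+/+ ESCs. SOX1 (-3.50) and ZIC1 (-2.06) were lower in EZH2-/+ ESCs too. The medians of this list in EZH2-/- ESCs were -0.08 relative to EZH2+/+ and 0.69 relative to restored ESCs. The part of such cells in the values of the 8 genes was not tested.

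By a rule on likeness, the 5 genes outside these lists whose levels followed the mean of the 8 genes most closely over the 12 libraries were LGR5 (r = 0.986), PRDM1 (0.962), DUSP4 (0.959), RP11-627G18.1 (0.957) and CCDC141 (0.957), among 15436 genes averaging 1 RPM or more. LGR5, a receptor for R-spondin, was at 1.33 RPM in EZH2+/+, 9.74 in EZH2-/- and 0.765 RPM in restored ESCs, with 6.72 RPM in EZH2-/+ library 2. RP11-627G18.1 is the gene antisense to GATA6. The points share genotype and library, and the values describe likeness only. Among the 8 genes themselves, r between levels was 0.985 for GATA4 and GATA6 at the top and 0.454 for FOXA1 and FOXA2 at the bottom.

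At the start sites, ChIP-seq gave 1 value per genotype and mark, the authors' mean over replicates (2 by the labels, more by the study's methods), so these changes have no replicate error and no test. For each gene the 5 kb window with the most H3K27me3 in EZH2+/+ ESCs was used. Read from the lowest values of each column, depth was 3.43 to 23.8 M reads per library for histone marks and input, lowest for H3K4me3 in EZH2+/+ ESCs, and 93.2 M reads for EZH2. In EZH2+/+ ESCs, 7 of the 8 genes, all but HNF4A, had an H3K27me3-marked promoter (input under and H3K27me3 over 0.1 log2 RPKM), as did 6235 of 35683 gene names.

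H3K27me3 in EZH2+/+ ESCs was 42.4 RPM at GATA4, 40.7 at FOXA2, 37.6 at GATA6, 32.4 at SOX17, 32.3 at HHEX and 32.1 RPM at FOXA1, all between the 98.5th and 99.4th percentile of gene names. CER1 had 11.99 RPM, near the middle of the marked promoters (percentile 51.2 among them). HNF4A had 1.39 RPM, 0.977 times its input. EZH2 itself followed a sharper split. It was at 3.77 to 8.74 RPM at those 6 genes, highest at GATA6 and SOX17, but at 0.258 RPM at CER1 and 0.193 RPM at HNF4A, which lie at the 46.0th and 34.7th percentile of gene names. Of the promoters printed above, those of GATA6 and HHEX, with 25 and 44 CpG, lay in windows with EZH2, and those of CER1 and HNF4A, with 3 and 11, did not.

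In EZH2-/- ESCs H3K27me3 was lower than in EZH2+/+ ESCs by a log2 difference of at least 1 at all 8 genes, where 48% of gene names were. The median change was -3.64 over the 8 genes, -0.94 over all gene names and -3.67 over H3K27me3-marked promoters. The log2 changes were -5.03 at HHEX (32.3 to 0.892 RPM), -4.09 at SOX17 (32.4 to 1.80), -4.05 at FOXA2 (40.7 to 2.36), -3.81 at GATA4 (42.4 to 2.93), -3.47 at FOXA1 (32.1 to 2.80), -3.31 at CER1 (11.99 to 1.12) and -2.89 at GATA6 (37.6 to 5.00 RPM). In the windows used, GATA6 held the most of the 8 in EZH2-/- ESCs, 4.39 times its input and at the 98.0th percentile of gene names. HHEX and CER1 were below their input. The other GATA6 window (22166943 to 22171943) held 2.33 RPM in EZH2-/- ESCs, beside an input of 1.01 RPM, and 32.4 RPM in EZH2+/+ ESCs. The fall at HNF4A, from 1.39 to 0.541 RPM, was between values under the input.

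Restored cells carried the mark at the same 7 genes. H3K27me3 in EZH2-/- +EZH2 ESCs was 42.0 RPM at GATA4, 32.3 at GATA6, 29.8 at SOX17, 28.8 at FOXA2, 28.6 at FOXA1, 23.3 at HHEX and 15.7 RPM at CER1. Relative to them, it was lower in EZH2-/- ESCs by at least 1 (log2) at 7 of the 8 genes, where 37.3% of gene names were. In EZH2-/+ ESCs the 8 genes differed from EZH2+/+ ESCs by -0.34 (FOXA2) to 0.26 (FOXA1), and CER1 by 0.02. The ChIP-seq columns are not tied to single RNA libraries.

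**Figure D3:**
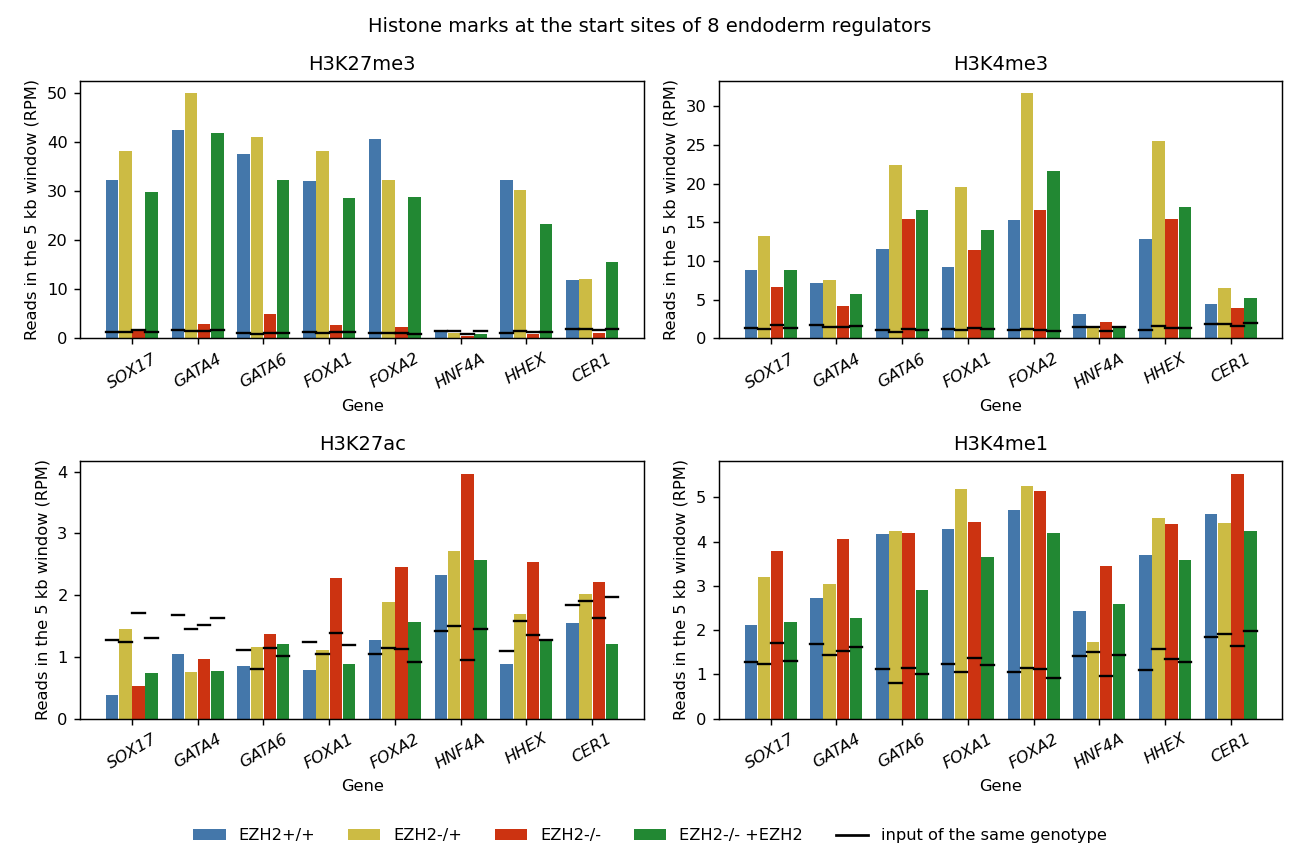
Reads (RPM) of 4 histone marks in the 5 kb window at each of the 8 genes by EZH2 genotype (bars, authors' means over replicates), with the input of the same genotype (black lines). In EZH2-/- ESCs H3K27me3 is 0.658 to 2.10 times the input at 6 of the 7 marked genes and 4.39 times at GATA6, and at HNF4A it is below the input in every genotype.

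Other start sites of the same gene were read as windows of their own, many of them overlapping. For H3K27me3 they mattered for GATA4 and, in EZH2-/- ESCs, for GATA6, as given above. The FOXA1 windows also differed in EZH2-/- ESCs, from 1.67 to 2.80 RPM. The GATA4 window with the most H3K27me3 (11690126 to 11695126 on chromosome 8) lies inside the gene. A window from 11701651 to 11706651 held about as much, 42.1 RPM, with 7.91 RPM of EZH2 in place of 3.77. The window at the first start site of GATA4 (11674459 to 11679459) held 18.7 RPM of H3K27me3, and that at the last (11753993 to 11758993) 3.42 RPM. For FOXA1, FOXA2, HHEX and GATA6 every window held 29.2 to 40.7 RPM in EZH2+/+ ESCs. Both groups of HNF4A windows, one around each of its RefSeq promoters, held 1.23 to 1.39 RPM.

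RNA and H3K27me3 did not rank the genes alike. HNF4A, with no H3K27me3 over input and little EZH2, rose 7.59-fold in mean RNA relative to EZH2+/+ ESCs. GATA4, with 14.5-fold less H3K27me3, rose 8.55-fold. FOXA1 had 11.4-fold less H3K27me3 in the window used and its RNA differed by 1.21-fold, which did not pass the test. HHEX had 36.2-fold less H3K27me3 and rose 3.10-fold, and GATA6, with 7.53-fold less in the window used, rose 11.5-fold. In EZH2-/- ESCs H3K27me3 at HHEX was 0.658 times input, about 12.3 reads per library, so the size of its fold depends on background. At GATA4 and FOXA1 it was 1.93 and 2.03 times input. The other GATA6 window went from 32.4 to 2.33 RPM, and a further FOXA1 window from 30.8 to 1.67 RPM. The ChIP-seq values have no replicates, so these pairs of values are given side by side only.

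H3K27ac, which marks active promoters, was low at most of these windows. It was above input at 2 of the 8 genes in EZH2+/+ ESCs (FOXA2 and HNF4A) and at 6 in EZH2-/- ESCs. In EZH2-/+ ESCs, which kept H3K27me3, it was above input at 7, and in EZH2-/- +EZH2 ESCs at 3. The share of all gene names above input is not given. It exceeded the EZH2+/+ value by a log2 difference of at least 1 in EZH2-/- ESCs at FOXA1 (0.784 to 2.28 RPM) and HHEX (0.886 to 2.54 RPM), where 9.2% of gene names were. Relative to EZH2-/- +EZH2 ESCs only FOXA1 passed that size (1.27 on the log2 scale, where 3.85% of gene names did). The median change was 0.69 over the 8 genes, 0.31 over all gene names and 0.66 over H3K27me3-marked promoters. SOX17 stayed below its input in EZH2-/- ESCs, at 0.526 RPM or about 4.58 reads per library, and HNF4A had the highest value, 3.97 RPM, 4.17 times its input.

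The low H3K27ac of GATA4 (1.05 RPM in parental against 0.960 RPM in EZH2-/- ESCs) belonged to the window inside the gene. At its first start site the values were 1.34 and 2.65 RPM, and in the window from 11705573 to 11710573 they were 1.28 and 3.01 RPM.

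Among the windows used, FOXA1 combined one of the 2 largest H3K27ac differences with no RNA difference that passed the test relative to EZH2+/+ ESCs. The size of its H3K27ac difference depended on the window. From EZH2+/+ to EZH2-/- ESCs it went from 0.805 to 1.99 RPM at 37592450 to 37597450, and from 0.971 to 1.19 RPM at 37593559 to 37598559. In EZH2-/+ ESCs H3K27ac was higher by 1 or more at SOX17 only (0.379 to 1.46 RPM, from about 4.58 to 14.4 reads per library), where 1.07% of gene names were.

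H3K4me3 and H3K4me1 moved less. H3K4me3 changed between EZH2+/+ and EZH2-/- ESCs by -0.77 (GATA4) to 0.41 (GATA6), with a median of -0.02 over the 8 genes and -0.17 over all gene names, a median whose sign depended on scaling. In EZH2-/+ ESCs it was higher than in EZH2+/+ ESCs by 1.08 at FOXA1 and 1.04 at FOXA2, where 5.19% of gene names were higher by 1 or more, beside depths of 12.3 and 3.43 M reads per library. In EZH2-/- +EZH2 ESCs HNF4A alone was lower by 1 or more than in EZH2+/+ ESCs (3.08 to 1.32 RPM), where 11.5% of gene names were. H3K4me1, found at active and poised regulatory regions, was higher in EZH2-/- than in EZH2+/+ ESCs at all 8 genes, by 0.01 (GATA6) to 0.81 (SOX17). The share of all gene names above 0 is not given, and the input at SOX17 was higher by 0.41. Divided by input, H3K4me1 was lower in EZH2-/- ESCs at GATA6 (3.74 to 3.68), FOXA1 (3.46 to 3.23) and HHEX (3.38 to 3.24). It was higher at the other genes. The median H3K4me1 change was 0.25 over the 8 genes, 0.11 over all gene names and 0.36 over H3K27me3-marked promoters. SOX17 and GATA4 had the widest H3K4me1 gaps to EZH2-/- +EZH2 ESCs as well, 0.77 and 0.80, beside input differences of 0.37 and -0.09.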

How the data were processed

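The authors trimmed reads (Trim Galore 0.4.0), aligned RNA to GRCh38 with TopHat2 2.0.12 and ChIP with Bowtie2 2.2.5 (versions per the submitters' processing notes), counted in SeqMonk without regard to strand and deposited log2 RPM, with genes without a read set at 0.9 of 1 read. ChIP-seq windows reached 2.5 kb either side of start sites, and the labels name 2 replicates per histone or input column, where the methods give more. Here values were returned to RPM, genes without a read were set to 0, and 100% of RNA values below 1000 reads were whole (tolerance 0.05 read). Of 35805 genes, the 20608 with a mean of at least 0.1 RPM were tested with limma 3.58.1 in R 4.3.3 (lmFit, eBayes with trend, two-sided) on log2(RPM + 0.1) of all 12 libraries, with Benjamini-Hochberg adjustment over all of them and calls under 0.05. This scale understates the change of low genes. ChIP-seq changes are differences of log2(RPM + 0.1) in the window with the most H3K27me3 in EZH2+/+ ESCs. The fit was also tested on simulated data.

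Libraries with the same number deviated together in every comparison (correlations 0.107 to 0.56 over genes). Those with other numbers had correlations of -0.449 to 0.21, a range that overlaps the first. By the rule used here the numbers pair the libraries, although the labels name no shared batch or day. The block is an alternative, given where it changes a call of the 8 genes, or of the other lists between EZH2-/- ESCs and either control. The named genes were the 8 regulators, members of the other lists past the threshold, and the 5 genes most alike in pattern. The 8 genes and all lists were chosen with earlier results of these data known. Of the later gut tube regulators, 1 gene is not reported here and was left out of the counts and medians. Other settings varied the pseudocount, filter, scaling, libraries and windows.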

Additional observations from a re-analysis of the deposited data

How the results depend on the processing

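Of 468 changes of single genes recomputed under other settings, 418 kept their direction and side of the threshold, 22 lost and 16 gained a call and 12 turned direction. None of the latter was called. For EZH2-/+ relative to EZH2+/+ ESCs, leaving each library out gave log2 differences of -0.35 to 1.08 (SOX17), -0.74 to 1.40 (GATA4), -0.24 to 1.93 (GATA6), -0.27 to 1.08 (FOXA2) and -0.24 to 1.71 (HNF4A), each lowest without EZH2-/+ library 2. For EZH2-/- +EZH2 relative to EZH2+/+ ESCs it gave -0.71 to 0.17 (FOXA2), -0.29 to 0.17 (HNF4A) and -0.27 to 1.09 (CER1), and HNF4A was at 0.059 after median-ratio scaling. The number of the 8 genes called in EZH2-/- relative to EZH2-/- +EZH2 ESCs, 1 as reported, was 2 with a pseudocount of 1 RPM, 5 with the 2 genotypes alone, 6 with the replicate block, 0 with limma voom on recovered reads, 4 without EZH2-/+ library 2 (chosen after seeing the data) and 0 to 1 with each library left out. Relative to EZH2+/+ ESCs it was 1 to 5 with each library left out, against 6. In EZH2-/- +EZH2 relative to EZH2+/+ ESCs it was 1 with the replicate block, against 0. The replicate block changed no call of the 8 genes beyond those given. Leaving libraries out lowers the number compared.

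Rescaling by the median ratio moved the median of all genes, EZH2-/- less EZH2+/+ ESCs, from -0.13 to -0.01, and the calls from 2593 higher and 3870 lower to 3378 and 2826. In restored relative to EZH2+/+ ESCs they went from 701 and 1422 to 1030 and 877. The calls of the 8 genes did not move. The block took all calls between EZH2-/- and restored ESCs from 542 higher and 108 lower to 1276 and 661. The median H3K27me3 change of the 8 genes between EZH2-/- and EZH2+/+ ESCs, -3.64, was -2.97 after centring on promoters without the mark. The median H3K4me3 change, -0.02, was 0.20 after that centring and 0.021 as a difference from input. Depth limits HNF4A and FOXA1, at 35 to 50 and 27 to 42 reads in the parental libraries, and H3K27ac at SOX17, at most 15.3 reads per library.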
